A study of Mus musculus with 32 samples.

Results

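Dll1, Dll3, Notch2 and Notch4 are the ligands and receptors of the Notch pathway described here, chosen by gene symbol from a table of 2-colour array ratios. They were 4 of 17060 features, a feature being a named gene or a row with no gene name, and they were read by 5 of 20794 probe rows because Dll1 had 2 probes. RNA of cloned mice, made by nuclear transfer, was hybridised against pooled RNA of mice bred conventionally, in liver and in spleen. The 4 groups were Dll1 clone liver, wt clone liver, Dll1 clone spleen and wt clone spleen, each with 4 male mice of strain 129/SvJ, aged 18 to 19 weeks, and 8 arrays. The pools had the same sex, strain and age. The pool for the Dll1 clones came from Dll1 heterozygotes and the pool for the wt clones from wildtype mice. The labels used here give neither the kind of Dll1 allele nor the zygosity of the clones, and do not say how many donor cells the clones came from. The protocol speaks of 6 animals in a pool, and the labels list 4.

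The Notch pathway passes a signal between touching cells. A ligand such as Dll1 on the sending cell binds a Notch receptor on its neighbour, the receptor is cut, and its inner part goes to the nucleus and switches on genes of the Hes and Hey repressor families. Dll3 is a divergent ligand that does not activate receptors on neighbours and, in mouse, is found mainly inside the cell, where it dampens Notch signalling. In mouse spleen, Notch2 and Dll1 are both needed for marginal zone B cells, and in liver Notch2 takes part in forming bile ducts. Notch4 is a receptor known mainly from the endothelium, the lining of blood vessels.

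Each value was a log2 ratio read as clone over pool, so 0 means equal signal, and a value of 1 a doubling. Each mouse was measured on a pair of arrays, with the clone in the red dye Cy5 on the first and in the green dye Cy3 on the other, and their mean was the mouse's value. On the arrays used here each clone was set against the pool of its own cohort, so Dll1 minus wt is not a measure of the effect of the Dll1 mutation but the difference between the shifts of 2 kinds of clone. Ratios hold no levels, so neither the tissue nor the order of expression of the 4 genes could be checked. In bulk RNA, fewer cells of a type and less RNA per cell cannot be told apart.

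Array medians lay between -0.067 and 0.079, and 59 to 2859 rows per array had no value. Within each of the 4 groups the mean ratios of the Cy5 arrays and of the Cy3 arrays correlated negatively across rows, at -0.26 in Dll1 clone liver, -0.70 in wt clone liver, -0.30 in Dll1 clone spleen and -0.38 in wt clone spleen. The direction of the Cy3 arrays is therefore not settled, and values with the sign of these arrays turned (turned values) are given beside the members' means and differences. Names were read 11 rows away from the row number. With this shift, probes of the same gene correlated over the mouse and organ samples at a mean r of 0.027, against 0.0022 without it. For pairs with a probe among the first 2000 rows, where the first Dll1 probe and Dll3 lie, the means were 0.0081 and 0.00096. For the other pairs they were 0.031 and 0.0025. The agreement was thus weak throughout, and weaker for the first rows. Dll3, Notch2 and Notch4 have a single probe each, so their own names could not be checked this way.

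Neither of the ligands nor either of the receptors passed the threshold of an adjusted p under 0.05 by limma in any of the 8 comparisons. The 29 member values that could be tested had adjusted p-values from 0.191 to 0.9999. Few other features passed on the values as deposited. The count was 12 of 17037 (0.0704%), all of them lower, in wt clone liver against its pool, and 0% in Dll1 clone liver, in either spleen, in both differences between the cohorts and in both differences between the organs. This count was 0 without wt mouse 1, 2 or 3 in turn. Turned values passed far more often, with 767 features in Dll1 clone liver, 9176 in wt clone liver, 732 in Dll1 clone spleen, 141 in wt clone spleen, 6892 for Dll1 minus wt in liver and 3536 between the organs of wt clones, and none of the members was among them. The values below therefore describe these mice. Mice of a cohort also share a pool, so the SEs, intervals and p-values hold the spread between clones and none between pools.

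Dll1 encodes the ligand that names the mutant cohort, and its locus is at chr17:15367354-15376932 on the minus strand (GRCm38.p6). In Dll1 clone livers it lay at 0.10, 0.09, -0.51 and 0.02 in mice 1 to 4. In wt clone livers it lay at 0.09, -0.26, -0.55 and -0.89. In 3 of 4 Dll1 clone livers it was slightly above the pool and in mouse 3 below it, whereas 3 of 4 wt clone livers were below, and the groups overlapped.

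The group mean of Dll1 was -0.075 ± 0.29 in Dll1 clone livers and -0.40 ± 0.42 in wt clone livers (SD, n = 4 mice each). The mean of the wt clone livers is 0.757 times the pool, with an unadjusted p of 0.0226 and an adjusted p of 0.484 by limma. Without wt mouse 4 this mean was -0.24, and with the Cy3 arrays turned -0.29. Dll1 minus wt in liver was 0.33 (SE 0.21, 95% interval -0.14 to 0.79, adjusted p = 0.935 by limma). It was 0.16 with the Cy3 arrays turned, 0.16 without wt mouse 4 and 0.49 without wt mouse 1. An exact two-sided permutation test of the 4 against 4 mice gave p = 0.257, where the smallest possible p is 0.0286. Hepatocyte markers lay below 0 in 8 of 8 cases in both cohorts. Of all features, 8811 of 17037 lay below 0 in Dll1 clone livers and 7702 of 17037 in wt clone livers. The markers had medians of -0.16 in Dll1 clone livers and -0.27 in wt clone livers, where 1 of them passed by limma. Their part in the Dll1 values was not tested. Turned medians of these markers were 0.01 in Dll1 clone livers and 0.10 in wt clone livers.

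In the spleen, Dll1 spread more widely. The Dll1 clone spleens lay at 0.48, -0.29, 0.93 and -0.52. The wt clone spleens lay at 0.67, -0.85, 0.41 and 0.77. Each cohort held mice on both sides of the pool, and the groups overlapped almost fully.

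The means of Dll1 were 0.15 ± 0.67 in Dll1 clone spleens and 0.25 ± 0.75 in wt clone spleens (SD, n = 4 mice each). Their difference was -0.10 (SE 0.45, 95% interval -1.12 to 0.91, adjusted p = 0.977 by limma, exact two-sided permutation p = 0.914), and -0.17 with the Cy3 arrays turned. The interval is wide in both directions. Turned means of Dll1 were -0.12 in Dll1 clone livers, -0.06 in Dll1 clone spleens and 0.11 in wt clone spleens. In order, the group means of Dll1 were lowest in wt clone liver, followed by Dll1 clone liver, Dll1 clone spleen and wt clone spleen, and no neighbours in this order differed by more than the larger of their SDs.

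The probes of Dll1 did not tell the same story. In Dll1 clone livers the first probe averaged -0.006 and the second -0.14, and in wt clone livers -0.04 and -0.76. In Dll1 clone spleens they averaged 0.24 and 0.31, and in wt clone spleens 0.46 and 0.04. The low Dll1 value of the wt clone livers thus came from the second probe, whose mean had an unadjusted p of 0.00574 and an adjusted p of 0.397 over probes by limma.

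On that second probe, the Cy5 arrays of the wt clone livers read -0.17, -0.24, -1.77 and -3.68 in mice 1 to 4. The Cy3 arrays of the same mice read -0.36, -0.20, -0.04 and 0.38. Mice 3 and 4 were low on the Cy5 array alone, and the Cy3 array of mouse 4 was above 0. Over the 16 mouse and organ samples the probes correlated at r = 0.22 (Spearman rho = 0.38), with the same sign in 12, and these points share arrays and, in pairs, mice. The correlation was 0.43 over the 8 livers and 0.08 over the 8 spleens. Over all pairs of probes of the same gene with values in all 16 samples, the mean r was 0.027. It was 0.0081 over pairs with a probe among the first 2000 rows, where the first Dll1 probe lies. The spread of r over pairs is not given, so the Dll1 pair cannot be placed among them.

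In 2 samples every Dll1 value lay below 0, on both probes and both dyes. In the liver of Dll1 mouse 3 the Cy5 arrays read -0.322 and -0.597 and the Cy3 arrays -0.449 and -0.673. In this mouse 9.23% of the 1960 genes with 2 probes and all values measured were below 0 on each of them. In the spleen of wt mouse 2 the Cy5 arrays read -0.327 and -1.19 and the Cy3 arrays -1.343 and -0.544, where 3.63% of 1844 such genes did the same. Both samples were picked on the values as deposited. Values that all lie below 0 must fall on both sides of 0 once the Cy3 arrays are turned, for any gene. Turning therefore could not test these samples, and which reading of the dyes holds is not settled.

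**Figure D1:**
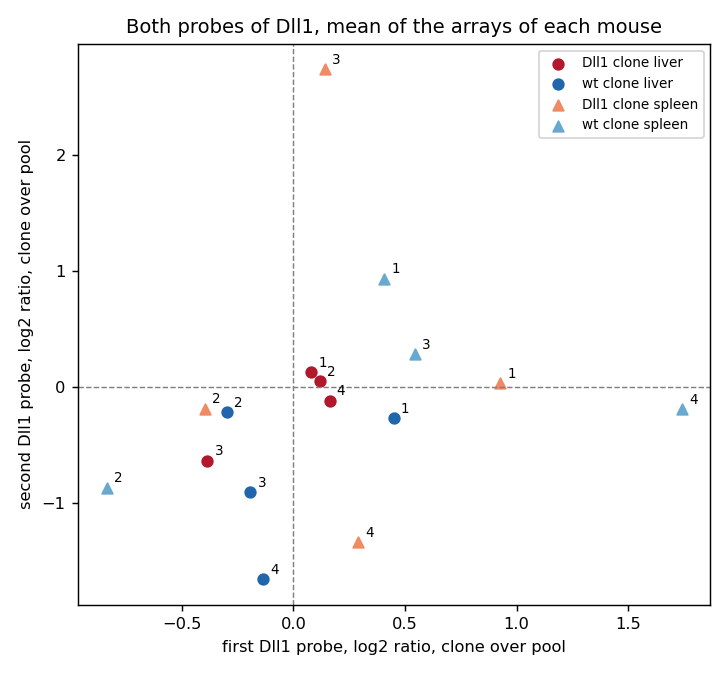
Log2 ratio (clone over pool) of the second Dll1 probe (y axis) against that of the first (x axis), 1 point per mouse and organ, with the mouse number beside it, circles for liver and triangles for spleen. The points scatter widely (r = 0.22 over 16 samples). Livers below 0 on both axes are those of Dll1 mouse 3 and of wt mice 2, 3 and 4. Spleens below 0 on both axes are those of Dll1 mouse 2 and wt mouse 2.

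Dll3, the inhibitory ligand, had the highest group mean of the 4 genes. Its gene is at chr7:28293555-28301785 on the minus strand, and it was measured on 22 of 32 arrays, 14 of liver and 8 of spleen, while the other member rows had 31 or 32. Only 1.2% of all rows had as few values. In Dll1 clone livers Dll3 lay at 0.70, 1.68, 1.21 and 1.21 in mice 1 to 4. In wt clone livers it lay at -1.41, -0.07, 1.04 and 0.22. All 4 Dll1 clone livers were above the pool, as for 5.91% of features, and all but mouse 1 of them were above every wt clone liver.

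The mean of Dll3 was 1.20 ± 0.40 in Dll1 clone livers and -0.06 ± 1.02 in wt clone livers (SD, n = 4 mice each). The mean of the Dll1 clone livers is 2.29 times the pool, with an unadjusted p of 0.00354, rank 118 of 17037, and an adjusted p of 0.481 by limma. Dll1 minus wt in liver was 1.25 (SE 0.44, 95% interval 0.27 to 2.23, unadjusted p = 0.0174, adjusted p = 0.935 by limma). Without wt mouse 1 the difference was 0.80. The exact two-sided permutation test gave p = 0.0571.

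The arrays of a mouse disagreed on Dll3. The Cy5 arrays of the Dll1 clone livers read -0.525, 1.675, 2.043 and 0.794 in mice 1 to 4, and the Cy3 arrays of mice 1, 3 and 4 read 1.92, 0.376 and 1.629. The Cy5 arrays of wt mice 1, 3 and 4 read 0.004, 2.576 and 0.027, and the Cy3 arrays of wt mice 1 to 4 read -2.82, -0.07, -0.502 and 0.403. The median gap between the arrays of a mouse was 1.67 in Dll1 clone livers and 2.82 in wt clone livers, as large as the means or larger. With the Cy3 arrays turned, the mean was 0.22 in Dll1 clone livers and 0.71 in wt clone livers, and the difference between the cohorts changed sign to -0.49 (adjusted p = 0.542 by limma).

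In spleen, Dll3 was measured in all 4 Dll1 clones and in 2 wt clones. The Dll1 clone spleens lay at -1.65, -2.01, -0.23 and 1.42, a mean of -0.62 ± 1.56 (SD, n = 4 mice). The values of Dll1 mice 2 and 4 rest on a single Cy3 array each. Dll1 mouse 3 read 2.469 on its Cy3 array and -2.928 on its Cy5 array. The spleens of wt mice 1 and 4 lay at 0.21 and 1.85, each on a single Cy5 array. With so few mice the wt clones and the difference between the cohorts were not tested. In the Dll1 clones the mean of Dll3 was higher in liver than in spleen by 1.82 (SE 0.69, unadjusted p = 0.0284, adjusted p = 0.626 by limma), and by 0.46 with the Cy3 arrays turned. This fit did not pair the organs of a mouse, and in mouse 4 Dll3 was lower in liver (1.21) than in spleen (1.42). In order, the means of the groups with 4 mice were lowest in Dll1 clone spleen, followed by wt clone liver and Dll1 clone liver, and neighbours in this order did not differ by more than the larger of their SDs except Dll1 clone liver from wt clone liver. The turned mean of Dll1 clone spleen was -0.25, and the livers changed places in this order.

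**Figure D2:**
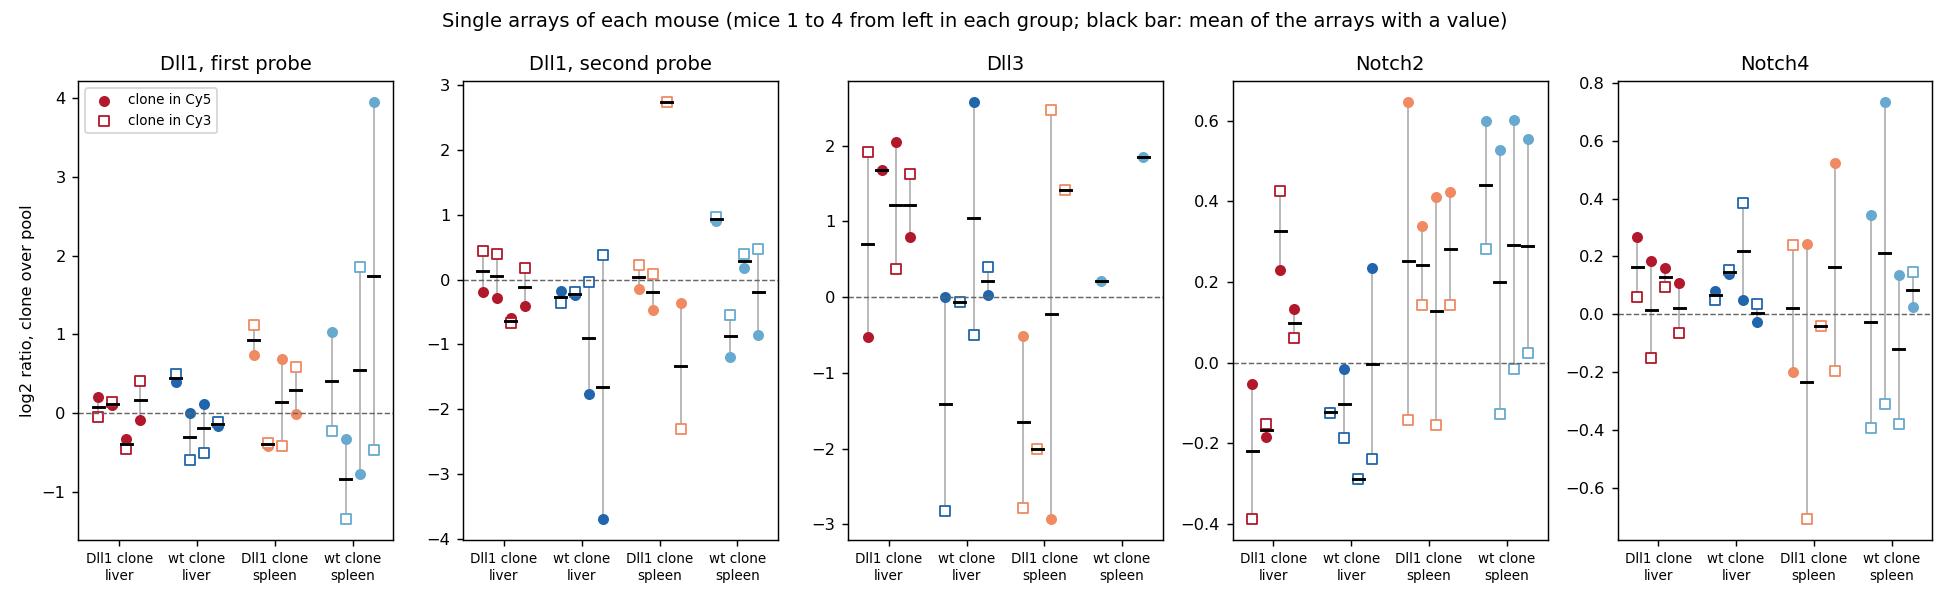
Log2 ratio (clone over pool, y axis) of each member probe on every array, by group (x axis) and by mouse within a group, with filled circles for the clone in Cy5, open squares for the clone in Cy3 and a black bar for the mouse's mean. The y axes differ between genes, and Dll3 spans -2.93 to 2.58 while Notch2 stays between -0.39 and 0.65.

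Notch2 encodes the receptor on which marginal zone B cells depend, and its gene is at chr3:98013538-98150367 on the plus strand. In spleen it was above the pool in every mouse of both cohorts. The Dll1 clone spleens lay at 0.25, 0.24, 0.13 and 0.28 in mice 1 to 4. The wt clone spleens lay at 0.44, 0.20, 0.29 and 0.29. Of 16430 features measured in all 8 spleens, 1.47% lay above 0 in 8 of 8 mice.

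The means of Notch2 in spleen were 0.23 ± 0.07 in Dll1 clones and 0.31 ± 0.10 in wt clones (SD, n = 4 mice each), or 1.17 and 1.24 times their pools. Neither passed by limma, with an unadjusted p of 0.0650 and an adjusted p of 0.517 in Dll1 clones, and an unadjusted p of 0.0197 and an adjusted p of 0.9999 in wt clones. The SD of Notch2 between the Dll1 clone spleens was small, since the median feature had an SD of 0.45 there and 0.818% of features had a smaller SD than Notch2. Dll1 minus wt in spleen was -0.08 (SE 0.15, 95% interval -0.42 to 0.26, adjusted p = 0.943 by limma, exact two-sided permutation p = 0.286), and -0.04 with the Cy3 arrays turned.

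The Cy5 arrays carried the higher Notch2 values in spleen. They read 0.647, 0.34, 0.411 and 0.424 in Dll1 clones and 0.6, 0.528, 0.602 and 0.554 in wt clones. The Cy3 arrays read -0.143, 0.143, -0.156 and 0.142 in Dll1 clones and 0.281, -0.127, -0.016 and 0.024 in wt clones. The Cy5 array was above the Cy3 array in 8 of 8 mice, as it was for 9.74% of rows measured on all these arrays. With the Cy3 arrays turned, the means stayed above 0, at 0.23 in Dll1 clone spleens and 0.27 in wt clone spleens. The Cy3 arrays averaged -0.0035 in Dll1 clones and 0.0405 in wt clones, so turning them could hardly move these means. The shift above the pools was thus seen in the Cy5 arrays.

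Lists of cell type markers were set beside these spleen values. Marginal zone B cell markers had a median of 0.16 in Dll1 clone spleens and 0.07 in wt clone spleens, with 4 of 5 above 0 in each. B cell markers had medians of 0.06 in Dll1 clones, with 3 of 5 above 0, and of 0.18 in wt clones, with 4 of 5 above 0. T cell markers had medians of 0.26 in Dll1 clones, with 4 of 5 above 0, and of 0.09 in wt clones, with 3 of 5 above 0. Erythroid markers lay at -0.76 in Dll1 clones and -0.64 in wt clones, with 5 of 5 below 0 in each. Of all features, 8369 of 16999 lay below 0 in Dll1 clones and 8037 of 17009 in wt clones. Exocrine pancreas markers had medians of 0.11 in Dll1 clones, with 2 of 3 above 0, and of 0.43 in wt clones, with 3 of 3 above 0. Cholangiocyte markers, of bile duct cells, had medians of -0.14 in Dll1 clones, with 1 of 4 above 0, and of 0.17 in wt clones, with 4 of 4 above 0. Turned medians of the erythroid markers were 0.04 in Dll1 clones and 0.20 in wt clones, of the marginal zone B cell markers 0.39 in Dll1 clones and 0.28 in wt clones, of the exocrine pancreas markers -0.21 in Dll1 clones and 0.07 in wt clones, and of the cholangiocyte markers 0.05 in Dll1 clones and 0.32 in wt clones. For the T cell markers the turned medians were 0.19 in Dll1 clones and 0.29 in wt clones, in the opposite order. For the B cell markers they were 0.01 in Dll1 clones and 0.07 in wt clones. The part of these cell types in the Notch2 values was not tested.

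In liver Notch2 lay nearer to its pools. The Dll1 clone livers lay at -0.22, -0.17, 0.33 and 0.10, and the wt clone livers at -0.12, -0.10, -0.29 and -0.003. Dll1 mice 3 and 4 were above the pool and the other 6 livers were below it, so the groups overlapped. Of all features, 9.02% lay below 0 in 4 of 4 wt clone livers. The means were 0.009 ± 0.25 in Dll1 clones and -0.13 ± 0.12 in wt clones (SD, n = 4 mice each), and Dll1 minus wt was 0.14 (SE 0.12, adjusted p = 0.935 by limma, exact two-sided permutation p = 0.371). Without Dll1 mouse 3 this difference was 0.03, and turning the Cy3 arrays gave -0.06, with means of 0.02 in Dll1 clones and 0.08 in wt clones. Cholangiocyte markers had medians of -0.03 in Dll1 clone livers, with 1 of 4 above 0, and -0.003 in wt clone livers, with 2 of 4. Turned medians of these markers were 0.09 in Dll1 clone livers and -0.04 in wt clone livers. Their part in the Notch2 values was not tested.

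Liver minus spleen of Notch2 was -0.22 in Dll1 clones (SE 0.16, adjusted p = 0.726 by limma, turned value -0.21) and -0.44 in wt clones (SE 0.10, 95% interval -0.65 to -0.22). In wt clones all 4 livers lay below 0 and all 4 spleens above it, and the organs did not overlap, which was so for 8.47% of 16721 features. This was the smallest p of the 29 member values, with an unadjusted p of 0.00179, rank 157 of 16989, and an adjusted p of 0.191 by limma. It stood at -0.18 with the Cy3 arrays turned (adjusted p = 0.183). A fit on single arrays used a dye term and a random effect for each mouse and organ sample. That effect joins the dye-swapped arrays of a sample and does not pair the organs of a mouse. In this fit the same difference of -0.44 passed, at an adjusted p of 0.0391 by limma. With the mouse as a fixed block, which uses the fact that both organs came from the same mice, the adjusted p was 0.642. Whether the organ difference itself differed between the cohorts was not tested.

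In order, the means of Notch2 were lowest in wt clone liver, followed by Dll1 clone liver, Dll1 clone spleen and wt clone spleen. Neighbours in this order did not differ by more than the larger of their SDs, and the organs of the Dll1 clones overlapped. Among turned means Dll1 clone liver was lowest and wt clone liver next to it, and the spleens kept their places.

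Notch4, the endothelial receptor at chr17:34564286-34588543 on the plus strand, had group means within 0.11 of its pools on the values as deposited. In Dll1 clone livers it lay at 0.17, 0.02, 0.13 and 0.02 in mice 1 to 4. In wt clone livers it lay at 0.07, 0.15, 0.22 and 0.006. It was above the pool in all 8 livers, as were 1.15% of 16958 features measured in all of them, although in 3 of these mice by less than 0.03.

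The means of Notch4 in liver were 0.08 ± 0.08 in Dll1 clones and 0.11 ± 0.09 in wt clones (SD, n = 4 mice each), or 1.06 and 1.08 times their pools. Adjusted p-values by limma were 0.586 in Dll1 clones and 0.536 in wt clones, where the unadjusted p was 0.0404. The Cy5 arrays of the Dll1 clone livers read 0.109 to 0.269 and the Cy3 arrays -0.153 to 0.095, with Cy5 above Cy3 in 4 of 4 mice, as for 21.5% of rows. In the wt clone livers the Cy5 arrays read -0.025 to 0.141 and the Cy3 arrays 0.037 to 0.386. Turning the Cy3 arrays left Dll1 clone liver at 0.10 and brought wt clone liver to -0.05, so the shared direction of both cohorts rests on the values as deposited. Endothelial markers had medians of -0.03 in Dll1 clone livers and -0.04 in wt clone livers, with 4 of 10 above 0 in each, and turned medians were 0.08 in Dll1 clone livers and 0.003 in wt clone livers.

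In spleen Notch4 lay at 0.02, -0.23, -0.04 and 0.16 in Dll1 clones and at -0.03, 0.21, -0.12 and 0.09 in wt clones. Both cohorts had 2 mice on each side of the pool, with means of -0.02 ± 0.16 in Dll1 clones and 0.04 ± 0.14 in wt clones (SD, n = 4 mice each). Dll1 minus wt was -0.03 in liver (SE 0.06, 95% interval -0.17 to 0.12, adjusted p = 0.974 by limma, exact two-sided permutation p = 0.657). The turned difference was 0.15 (SE 0.06, unadjusted p = 0.0388, adjusted p = 0.0809 by limma), of opposite sign and outside this interval. In spleen it was -0.06 (SE 0.17, 95% interval -0.45 to 0.33, adjusted p = 0.962 by limma, exact two-sided permutation p = 0.6), and -0.11 with the Cy3 arrays turned. No neighbours among the 4 group means of Notch4, in order Dll1 clone spleen, wt clone spleen, Dll1 clone liver and wt clone liver, differed by more than their SD. Turned means ran in another order, with wt clone liver at -0.05 lowest, followed by Dll1 clone liver at 0.10, Dll1 clone spleen at 0.16 and wt clone spleen at 0.27.

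**Figure D3:**
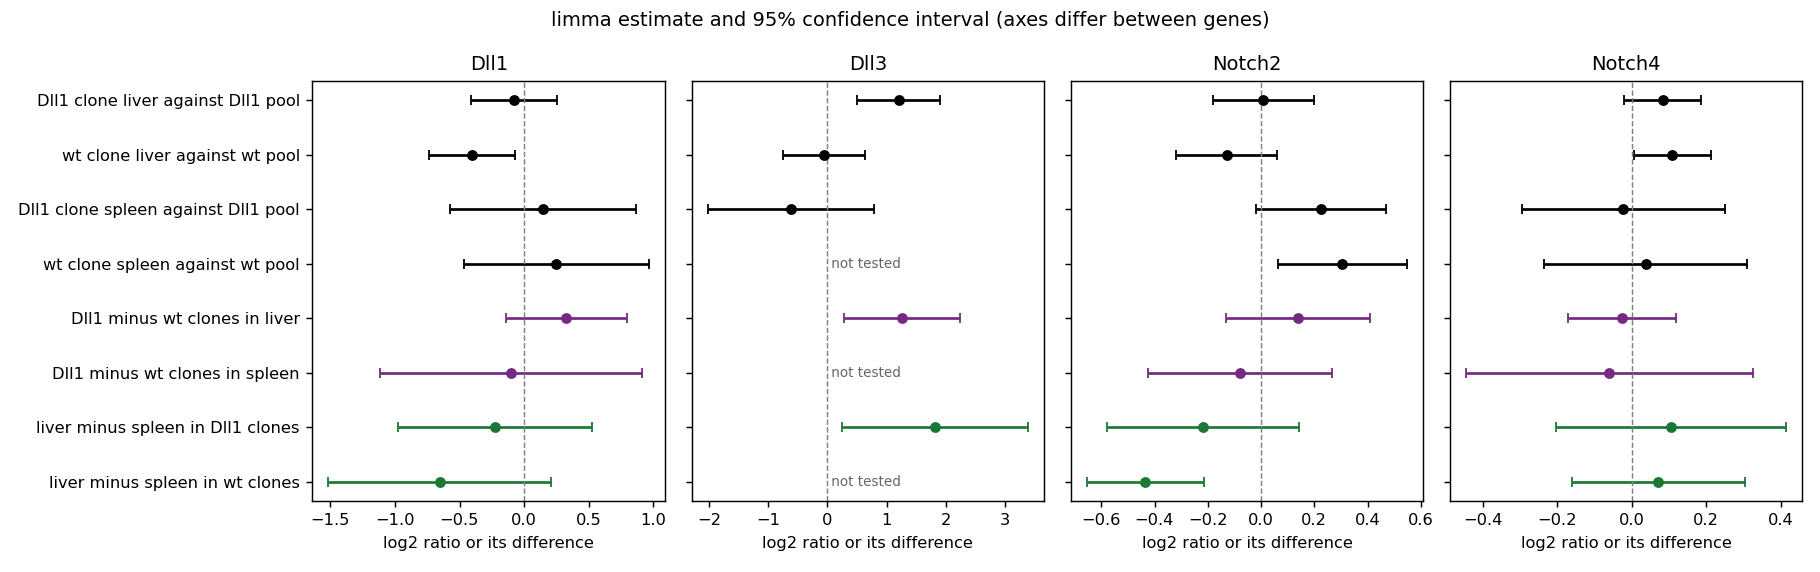
The limma estimate with its 95% confidence interval (x axis, log2 ratio or difference of log2 ratios) for each member in the 8 comparisons (y axis), with black for clone against pool, purple for Dll1 minus wt and green for liver minus spleen. Intervals that leave out 0 before adjustment are those of Dll3 in Dll1 clone liver, in the liver difference and between organs of Dll1 clones, of Dll1 and Notch4 in wt clone liver, and of Notch2 in wt clone spleen and between organs of wt clones.

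Counted at an unadjusted p under 0.05, 1 of 4 members was higher in Dll1 clone liver (Dll3), as were 3.6% of all features. In wt clone liver 1 of 4 was lower (Dll1), beside 4.26% of features, and 1 of 4 higher (Notch4), beside 4.62%. In Dll1 clone spleen it was 0 of 4 in either direction, beside 9.98%, and in wt clone spleen 1 of 3 was higher (Notch2), beside 1.82%. For Dll1 minus wt 1 of 4 was higher in liver (Dll3), beside 1.78%, and 0 of 3 had such a p in spleen in either direction, beside 4.6%. For liver minus spleen 1 of 4 was higher in Dll1 clones (Dll3), beside 3.69%, and 1 of 3 was lower in wt clones (Notch2), beside 5.1%. With 3 or 4 members a comparison, a single gene sets each of these shares. Among turned values, Notch4 took the place of Dll3 as the gene with such a p in Dll1 clone liver (beside 24.1% of features in either direction) and in the liver difference (beside 50.9%), higher in both. In wt clone liver 0 of 4 members then had one, beside 59.9% of features, and in Dll1 clone spleen 0 of 4, beside 25.2%. In wt clone spleen it was again Notch2 (higher, beside 17%), in the spleen difference 0 of 3 (beside 6.91%), between organs of Dll1 clones 0 of 4 (beside 15.5%) and between organs of wt clones Notch4 (lower, beside 35.3%).

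On the values as deposited, the 4 genes did not move as a group over the samples. Over the 16 mouse and organ samples, Dll1 correlated at 0.26 with Notch2 and at -0.40 with Notch4, and Notch2 with Notch4 at -0.38. Dll3 correlated at 0.57 with Notch4 over its 14 samples, at -0.10 with Dll1 and at -0.08 with Notch2. The samples share pools within a cohort and mice between organs, so these are descriptions only.

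The genes most like each member across these samples were found by Pearson correlation over up to 8786 named genes. For Notch2 they were Lcp1, an actin-bundling protein of leukocytes, at 0.85, Nme2, a nucleoside diphosphate kinase, at 0.82 and Ddx5, an RNA helicase, at 0.81. For Notch4 they were the zinc finger gene Zfp629 at 0.86, the nuclear transport factor Xpo4 at 0.85 and the collagen chain Col9a2 at 0.85. For Dll1 they were Rab39b at 0.80, Nwd1 at 0.77 and Arpc4, a subunit of the Arp2/3 actin complex, at 0.76, and for Dll3, over 14 samples, Rnf25 at 0.83, Rab35 at 0.81 and Rnpc3 at 0.81. The 99th percentile of all correlations lay at 0.61 for Dll1, 0.69 for Dll3, 0.64 for Notch2 and 0.66 for Notch4, and no other member was among the 3 genes most like any member.

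The rest of the pathway was read from lists by role. Of 72 further Notch genes, 51 were on the array under their symbol. For Dll1 minus wt in liver, 0 of 51 passed by limma, 2 were higher and 1 lower at an unadjusted p under 0.05, and the median was 0.0002, against 0.23 over the 4 members and -0.01 over all features. In spleen 0 of 50 passed by limma, 0 were higher and 1 lower at an unadjusted p under 0.05, and the median was 0.06, against -0.08 over the 3 members tested and -0.004 over all features. Of turned values, 12 of 51 passed higher and 5 lower in liver by limma, where 6892 of 17020 features passed, and 0 of 50 passed in spleen, where 2 were lower and 0 higher at an unadjusted p under 0.05.

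The gene with the smallest p of each list on the values as deposited is given next, with every adjusted p at 0.881 or above by limma. In liver, the target repressor Hey2 lay 0.39 higher in Dll1 than in wt clones (SE 0.13, unadjusted p = 0.0120) and the histone acetyltransferase Ep300, a coactivator of the Notch nuclear complex, 1.87 higher (SE 0.57, unadjusted p = 0.00908). Pofut1, which adds the O-fucose that receptors need for ligand binding, lay at -0.16 (SE 0.07, unadjusted p = 0.0386). Aph1c, a gamma-secretase subunit gene of rodents, lay at 0.50, Dtx3, a Deltex-family ubiquitin ligase, at 0.15 and the contactin Cntn1 at 0.11. The Ep300 difference came mostly from the wt clone livers, at -1.47 against their pool, with the Dll1 clone livers at 0.40.

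In spleen Aph1c lay at -1.26, Dll1 minus wt (SE 0.49, unadjusted p = 0.0330), opposite in sign to liver, and whether the organs differed was not tested. The groucho corepressor Tle1 lay at 0.83, the fringe glycosyltransferase Rfng at -0.37, the target repressor Hes7 at 0.32, the non-canonical ligand Dlk1 at 0.25 and Dtx3 at 0.24. Genes of the nuclear complex all lay above 0 in this difference, 11 of 11 with a median of 0.16, beside 49.5% of all features and 72% of the further Notch genes, and none of them passed. It was 6 of 12 in liver, and in spleen 6 of 11 with the Cy3 arrays turned. Other ligands and receptors had 6 of 9 above 0 in both organs, with medians of 0.07 in liver and 0.08 in spleen.

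**Figure D4:**
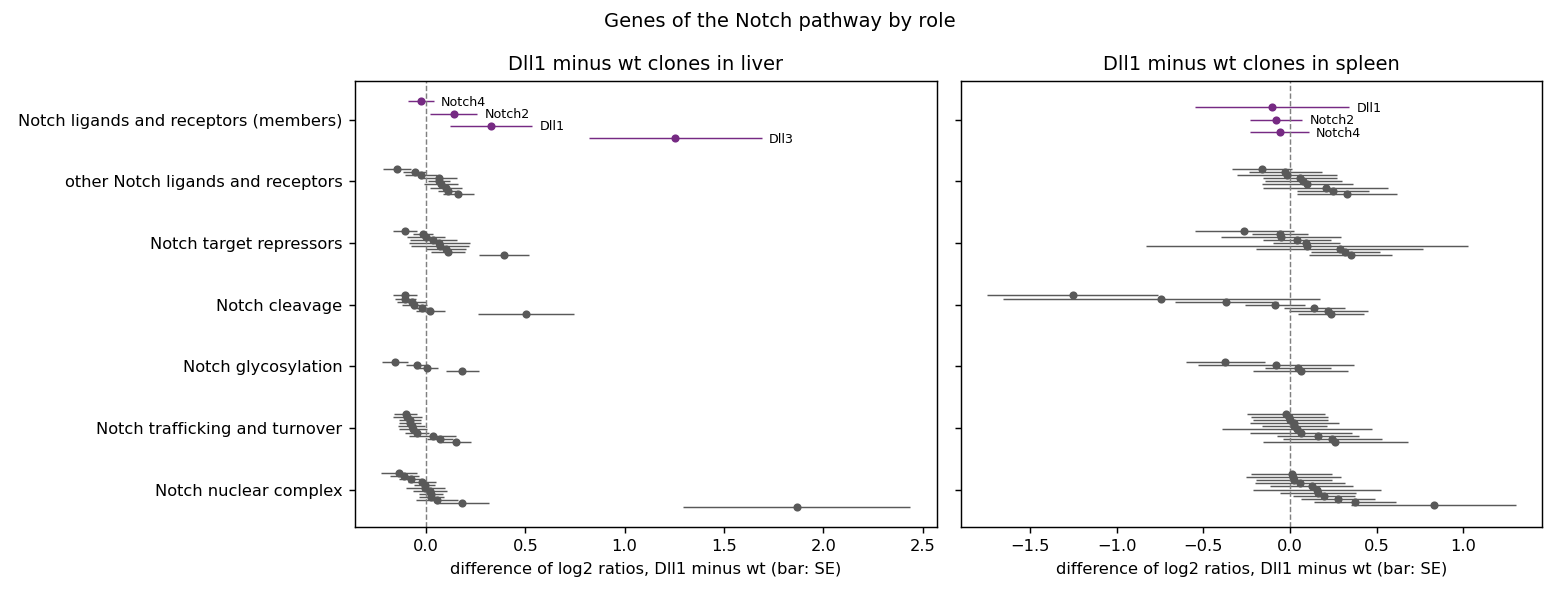
Difference of log2 ratios, Dll1 minus wt clones (x axis, bar: SE), for every measured gene of 7 Notch lists (y axis) in liver (left) and spleen (right), 1 point per gene, with the ligands and receptors described here in purple. Most genes lie near 0 in liver, apart from Dll3 at 1.25 and Ep300 at 1.87, and the bars are wider in spleen.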

How the data were processed

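Ratios of 32 2-colour arrays were analysed, 2 per mouse and organ with dyes swapped. The authors deposited 1 log2 ratio per probe and array. Per the labels' protocols, RNA was labelled with Cy3 or Cy5 by an indirect method. How the ratios were scanned, filtered and normalized is not given in the sources used here, nor is the logarithm's base, which was taken from constants near the scanner's limit. These constants (over 9 in size, 1183 values, 0 on member rows) were set to missing. Both dye orientations were used as deposited. Probes of a gene were averaged within an array, then arrays within a mouse. Row names came from the platform annotation, 11 rows earlier, giving 12760 rows and 9026 genes a name. Gene positions are RefSeq's for GRCm38.p6.

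Means and differences were tested with limma 3.58.1 (lmFit, eBayes) in R 4.3.3, with Benjamini-Hochberg adjustment over all features that had values in at least 3 mice per group. Cohorts of an organ, or organs of a cohort, were fitted together, the latter without the mouse as a block. The fit was tested on simulated data. Summaries used Python 3.11.15 and pandas 2.3.3. The number of arrays limits the precision, and n counts mice.

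The labels' mouse identifiers pair liver and spleen of the same mouse. Deviations of such pairs from their group means correlated at 0.0006 to 0.078. Between cohorts the title numbers are shared without a stated pairing. The members and lists were chosen with earlier results of these data known. Genes named beside the members were the 3 most correlated with each over the samples and, per Notch list, the one with the smallest p in each difference between the cohorts. Alternatives tried were the direction of the Cy3 arrays, the names as given, the constants kept, centring and scaling, the missing-value filter, the order of averaging, single arrays, all samples in the fit, replicate blocks and each mouse left out. The gene lists with the Cy3 arrays turned were added after seeing the data.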

Additional observations from a re-analysis of the deposited data

Results flagged for a closer look

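Dll1 in the liver of Dll1 clones had a mouse far from the others. Mouse 3 lay at -0.51, while the other 3 lay between 0.02 and 0.10, and the gap exceeded Dixon's critical value for a group of 4. Of 15 member and group sets of 4 mice, 1 was picked out this way, and chance picks out about 1 in 20 such groups. Without this mouse the group mean of Dll1 was 0.07, against -0.075 with it. Both probes and both dyes read below 0 in this liver, as did 9.23% of the 1960 genes with 2 probes and all values measured. Turning the Cy3 arrays must put such values on both sides of 0, so it could not test this low value. Which reading of the dyes holds is not settled.

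Notch2 in the wt clones lay below 0 in every liver and above 0 in every spleen. The liver mean of -0.13 did not pass by limma (adjusted p = 0.706), nor did liver minus spleen at -0.44 (SE 0.10, adjusted p = 0.191, n = 4 mice), whose adjusted p was 0.642 with the mouse as a fixed block. With the Cy3 arrays turned, both means lay above 0, at 0.081 in liver and 0.27 in spleen.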

How the results depend on the processing

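Of 389 member values under alternatives, 1 passed the threshold by limma: Notch2, liver minus spleen in wt clones, at -0.44 (adjusted p = 0.0391) with single arrays and a dye term. Signs turned in 29 values beside those with a mouse left out, none of them called. The causes were not tested. Turning the Cy3 arrays moved counts of passing features to 767 in Dll1 clone liver, 9176 in wt clone liver, 732 in Dll1 clone spleen, 141 in wt clone spleen, 6892 for Dll1 minus wt in liver and 3536 for liver minus spleen in wt clones. It gave, in wt clone liver, Dll3 0.71, Notch2 0.081 and Notch4 -0.048, in Dll1 clone spleen Dll1 -0.059 and Notch4 0.16, for Dll1 minus wt in liver Dll3 -0.49, Notch2 -0.058 and Notch4 0.15, and for liver minus spleen Notch4 -0.067 in Dll1 clones and -0.32 in wt clones. Names as given, which read other rows, gave Dll3 -0.69 in Dll1 clone liver, Dll3 0.079 and Notch2 0.025 in wt clone liver, Dll3 0.79 and Notch2 -0.23 in Dll1 clone spleen, and Dll1 -0.35, Notch2 -0.25 and Notch4 -0.086 in wt clone spleen. For Dll1 minus wt they gave Dll3 -0.77 and Notch4 0.018 in liver and Dll1 0.41 and Notch2 0.021 in spleen, and for liver minus spleen Dll3 -1.48 and Notch2 0.27 in Dll1 clones and Dll1 0.27 and Notch2 0.27 in wt clones, where the count was 5. Single arrays gave counts of 12 and 54 in Dll1 and wt clone liver, 1 and 8 in Dll1 and wt clone spleen, and 1 and 107 between organs of Dll1 and wt clones, and Notch4 at 0.013 in Dll1 clone spleen. All samples in the fit gave 960 and 61 in Dll1 and wt clone spleen, 0 in wt clone liver, 58 for Dll1 minus wt in spleen and 7 between organs of Dll1 clones. In wt clone liver the count was 0 with constants kept and 0 after centring and scaling, which put Notch4 at 0.029 for Dll1 minus wt in liver. Requiring both arrays of all mice gave 14 between organs of wt clones. Averaging probes over arrays first gave Dll1 0.025 for Dll1 minus wt in spleen.

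Leaving out each mouse in turn gave counts of 0 to 1 in Dll1 clone liver, 0 to 12 in wt clone liver (0 without wt mouse 1, 2 or 3 and 2 without mouse 4) and 0 to 1 in Dll1 clone spleen. Dll1 ranged from -0.13 to 0.070 in Dll1 clone liver, from -0.11 to 0.37 in Dll1 clone spleen, from -0.47 to 0.12 for Dll1 minus wt in spleen and from -0.48 to 0.18 between organs of Dll1 clones. Dll3 ranged from -0.42 to 0.39 in wt clone liver, and Notch2 from -0.097 to 0.086 in Dll1 clone liver. Notch4 ranged from -0.085 to 0.047 in Dll1 clone spleen, from -0.021 to 0.091 in wt clone spleen, from -0.061 to 0.010 and from -0.12 to 0.0098 for Dll1 minus wt in liver and spleen, and from -0.018 to 0.12 between organs of wt clones. The ranges so far are those that cross 0. Among the others, leaving out a mouse moved values that did not pass by over 1.5 times for Dll1 in wt clone liver (-0.57 to -0.24), wt clone spleen (0.077 to 0.62), Dll1 minus wt in liver (0.16 to 0.49) and between organs of wt clones (-1.07 to -0.31). It did so for Dll3 in Dll1 clone spleen (-1.30 to -0.15), Dll1 minus wt in liver (0.80 to 1.62) and between organs of Dll1 clones (1.19 to 2.49), for Notch2 in wt clone liver (-0.17 to -0.076), between organs of Dll1 clones (-0.36 to -0.13) and Dll1 minus wt in liver (0.032 to 0.21) and spleen (-0.11 to -0.035), and for Notch4 in wt clone liver (0.073 to 0.14) and between organs of Dll1 clones (0.058 to 0.19). With the mouse, or the number in the titles, as a replicate block, the counts of the 4 differences were 0 and no call changed. Mice varied more in spleen, with a median SD of 0.45 over features in Dll1 clones and 0.28 in wt clones, against 0.11 and 0.087 in liver.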
